A study of Mus musculus with 9 samples.

Results

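Autosomal genes with higher transcript levels in XY oocytes than in XX and XO oocytes were examined together with the genes in which some of them lie. The set holds 10 gene names. Kcnj13, Evi2, Evi2a, Evi2b, Omg, Ttc39a, Dnajc5g and Abhd12b were chosen by their levels in XY oocytes, and Gigyf2 and Nf1 were added as host genes, Gigyf2 because Kcnj13 lies within it and Nf1 because Omg and the Evi2 genes lie within it. Of the 10 names, 9 were found among the 28052 genes counted, 7 of them chosen by level and 2 host genes, whereas Omg was not analysed here. Since the levels in XY oocytes chose the first group, their differences from XX and XO oocytes are described without a test. The host genes were added for their position, so their differences were tested, although the set was made with earlier results of these data known.

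The RNA came from growing mouse oocytes of 3 genotypes, with 3 pools each. Every pool held 10 oocytes 50–55 μm wide and 20 that were 55–60 μm wide, 30 in all, freed from ovaries of females at 18 days postpartum (dpp) by collagenase and trypsin. The labels give C57BL/6 (B6) as the strain of all pools. XY females, which carried the Y chromosome of B6.Y TIR males, and XX females were littermates, whereas XO females were daughters of Paf carrier males of a C3H/HeSnJ line crossed back to B6. XO oocytes therefore differed from the others in parental line as well as in sex chromosomes, and these cannot be told apart. Libraries were made by Smart-seq3, in which a unique molecular identifier (UMI) at the 5′ end marks each transcript, and PCR copies of the same transcript count once. Levels are given as normalized CPM, UMIs of a gene scaled to the gene UMIs of the pool and to a factor from spike-ins. The spike-ins were ERCC RNA added to each lysate. The factor comes from the proportions of the spike-ins among each other, so their amount relative to oocyte RNA does not set it. In XX3 and XX2 it was 1.25 and 1.17, with spike-ins at 0.204 and 0.617% of UMIs. The levels are therefore not calibrated to the amount of spike-in.

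Pools had between 2130145 and 3157338 UMIs on genes, the most in XY3, and 18334 to 21044 genes were detected by 1 UMI or more. The Y-linked genes Ddx3y, Eif2s3y, Kdm5d and Uty together had 873 to 1000 UMIs in XY pools and 1 to 3 in XX and XO pools, which sets the XY pools apart but does not tell XX from XO pools. The oocyte markers summed to between 20053 and 29496 normalized CPM in XY pools, 27433 and 30127 in XX pools, and 18463 and 59063 in XO pools, the widest range of the genotypes. A low level in such a pool can stand for fewer cells that hold a transcript or for less of it per cell, which cannot be told apart.

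A gene that lies in an intron of another and is read from the opposite strand has its own promoter and makes its own transcript, so host and nested gene need not change together. Kcnj13 encodes Kir7.1, an inwardly rectifying potassium channel known from epithelia such as retinal pigment epithelium. Its host Gigyf2 encodes a protein that, with the cap-binding protein 4EHP, represses translation. Nf1 encodes neurofibromin, which switches Ras proteins off. Of the genes inside it, Evi2, Evi2a and Evi2b are named after a site at which retroviruses insert in mouse leukaemia, Evi2b encodes a surface glycoprotein of leukocytes, and Omg encodes a glycoprotein of myelin.

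In GRCm38 with the Gencode vM21 annotation, Gigyf2 spans chr1:87326998-87450796 on the plus strand. Kcnj13 spans chr1:87386363-87394729 on the minus strand, between exons 8 and 9 of the transcript Gigyf2-201, in an intron of 23658 bases. Exons of the transcripts Gigyf2-214, Gigyf2-215 and Gigyf2-218 overlap Kcnj13 on the other strand, and UMIs there may not be told apart if genes were counted without strand. Nf1 spans chr11:79339693-79581612 on the plus strand, and Omg and the 3 Evi2 genes lie on the minus strand between exons 36 and 37 of Nf1-201, in an intron of 59719 bases. Omg lies at chr11:79500982-79504084, Evi2 at chr11:79513385-79530589, Evi2b at chr11:79515056-79523762 and Evi2a at chr11:79526560-79530609, and none of them overlaps an exon of Nf1. The exons of Evi2 cover 98.5% of the exonic bases of Evi2b, 1831 of 1858, and 442 exonic bases of Evi2a. A UMI in these bases cannot be assigned to 1 gene by its position, so the split among the Evi2 genes is uncertain. Ttc39a (chr4:109406623-109444745), Dnajc5g (chr5:31106285-31112526) and Abhd12b (chr12:70154142-70183887) lie on the plus strand.

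**Figure D1:**
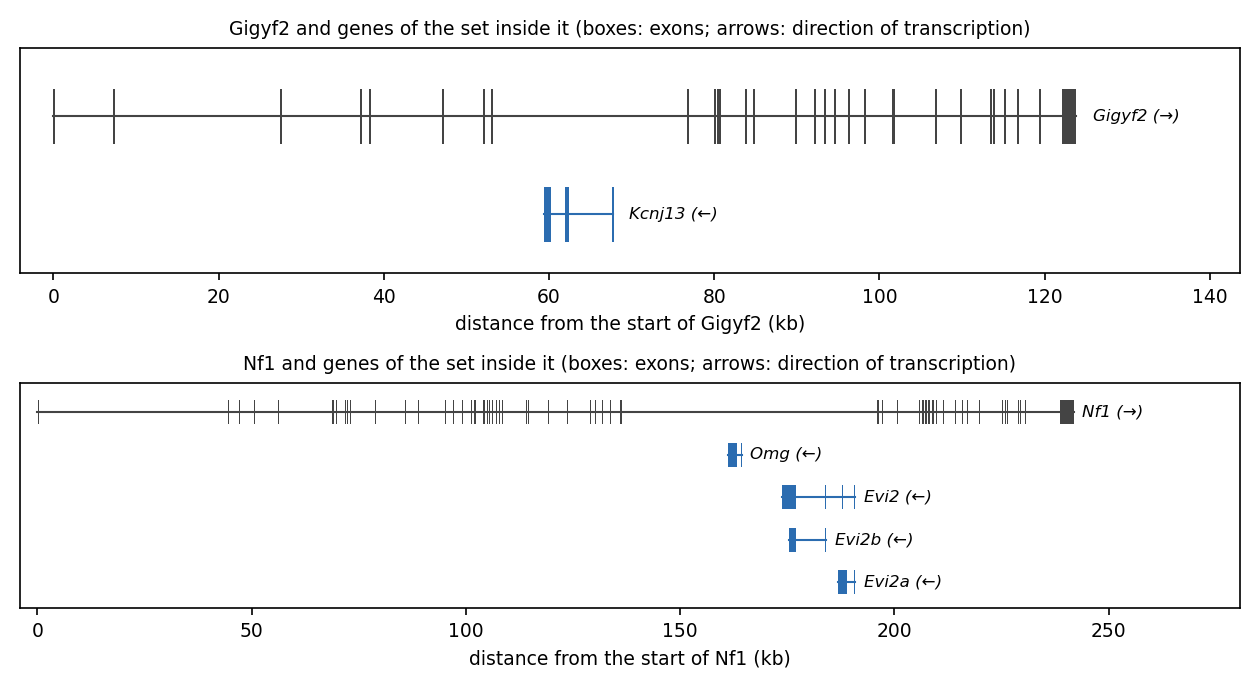
Gencode gene models of Gigyf2 with Kcnj13 (top) and of Nf1 with Omg and the Evi2 genes (bottom), on the distance from the start of the host gene in kb. Boxes are exons, with the host drawn as its transcript 201, and arrows give the direction of transcription. Kcnj13 begins its span 59.4 kb into Gigyf2, and the 4 genes drawn inside Nf1 share 1 intron.

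The promoters of both pairs of nested and host gene are shown because the pairs differ in base composition. They run from 250 bases before to 50 bases after the start in RefSeq (GRCm38.p6), 5′ to 3′ on the strand of the gene. Capitals mark each match, on either strand, to TATAAA (the TATA box), CCAAT (the CCAAT box), GGGCGG (the GC box), CACGTG (an E-box) or AGGCCT (the core of the site of the zinc finger proteins ZFX and ZFY), and no matches overlapped. The windows are chr1:87394680-87394979 (minus strand) for Kcnj13, chr1:87326748-87327047 (plus strand) for Gigyf2, chr11:79530560-79530859 (minus strand) for Evi2 and chr11:79339642-79339941 (plus strand) for Nf1.
Kcnj13: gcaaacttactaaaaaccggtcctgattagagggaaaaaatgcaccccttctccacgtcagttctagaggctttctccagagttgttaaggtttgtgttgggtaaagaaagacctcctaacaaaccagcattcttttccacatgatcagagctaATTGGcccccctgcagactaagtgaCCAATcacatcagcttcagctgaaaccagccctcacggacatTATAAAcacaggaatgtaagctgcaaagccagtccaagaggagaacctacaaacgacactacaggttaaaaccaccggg
Gigyf2: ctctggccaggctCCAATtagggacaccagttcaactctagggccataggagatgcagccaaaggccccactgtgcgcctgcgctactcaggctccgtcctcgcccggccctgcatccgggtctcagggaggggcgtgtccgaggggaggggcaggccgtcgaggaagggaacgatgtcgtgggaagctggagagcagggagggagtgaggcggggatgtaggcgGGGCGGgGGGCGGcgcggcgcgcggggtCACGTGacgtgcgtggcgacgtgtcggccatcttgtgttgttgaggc
Evi2: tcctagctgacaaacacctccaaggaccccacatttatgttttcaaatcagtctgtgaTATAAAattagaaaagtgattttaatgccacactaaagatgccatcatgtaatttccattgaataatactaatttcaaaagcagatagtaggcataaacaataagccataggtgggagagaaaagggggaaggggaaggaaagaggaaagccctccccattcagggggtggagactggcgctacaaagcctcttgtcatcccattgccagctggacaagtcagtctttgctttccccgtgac
Nf1: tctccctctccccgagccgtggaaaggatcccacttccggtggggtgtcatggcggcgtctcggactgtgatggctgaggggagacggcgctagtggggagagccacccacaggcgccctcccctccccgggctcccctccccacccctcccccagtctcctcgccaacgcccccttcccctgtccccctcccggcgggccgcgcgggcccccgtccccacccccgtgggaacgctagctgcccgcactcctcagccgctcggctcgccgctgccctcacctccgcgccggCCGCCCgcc

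RefSeq gave a promoter for 8 of the 10 names, all but Evi2a and Omg. The start used for Evi2 is also the first base of the Gencode transcripts Evi2a-202 and Evi2a-205, so this promoter may belong to both genes. Evi2 and Evi2a also share bases of their first exon. The Kcnj13 promoter was 46.0% G and C with 5 CpG sites and that of Evi2 43.3% with 2 CpG sites, both below the medians of all 32851 mouse promoters in the table, 52.7% and 7. The host promoters lay above these medians, with 68.3% and 27 CpG sites in Gigyf2 and 75.7% and 30 CpG sites in Nf1. Of the other promoters, Evi2b had 41.0% and 5 CpG sites, Ttc39a 47.0% and 1, Abhd12b 51.0% and 2, and Dnajc5g 56.3% and 15. TATAAA was found in 2 of the 8, at -29 from the start of Kcnj13 and at -192 from that of Evi2, and in 13.6% of all promoters. GGGCGG was found in 3 of the 8, among them both hosts, and in 35.7% of all, CCAAT in 3 of the 8 and 37.4% of all, and CACGTG in Gigyf2 alone of the 8 and 7.15% of all. AGGCCT was found in 1 of the 8, that of Ttc39a, and in 10.3% of all promoters.

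The 7 analysed genes that were chosen by level were each higher in all XY pools than in all XX and XO pools, as the choice implies. Of the 10993 genes tested, 1.96% had this order. With a plain ERCC total as the scale, only Kcnj13, Evi2a and Evi2b kept it, and under none of the scalings did the direction of a log2 fold change of these genes turn. A limit of an unadjusted p below 0.05 and a log2 fold change above 1 over both other genotypes was met by 63 genes, 0.573% of those tested. Since these comparisons chose the genes, nothing is read from it about them. Dnajc5g lay closest to this limit, with a log2 fold change of 1.00 over XO oocytes, and Slc5a4b just outside it, with 0.97 over XX and 1.08 over XO oocytes.

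The potassium channel gene Kcnj13 stood at 12.1, 20.0 and 5.48 normalized CPM in XX pools, at 21.7, 9.82 and 10.7 in XO pools and at 93.9, 61.5 and 79.1 in XY pools, in order of pool number. The lowest XY pool was 2.83 times the highest of the others, and the pools without a Y chromosome overlapped. The mean was 78.2 ± 16.2 (SD, n = 3) in XY, 12.5 ± 7.25 in XX and 14.1 ± 6.64 in XO oocytes, on the scale of normalized CPM. The log2 fold change was 2.64 over XX and 2.46 over XO oocytes.

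Evi2, the longest gene of the cluster within Nf1, was at 9.26, 5.95 and 10.1 normalized CPM in XX pools, at 13.5, 8.79 and 10.7 in XO pools and at 38.6, 30.9 and 58.0 in XY pools. All XY pools exceeded the others, the lowest by 2.30 times, and XY3 was highest. The log2 fold change of Evi2 was 2.33 over XX and 1.95 over XO oocytes. Evi2b was at 3.56, 1.75 and 3.35 normalized CPM in XX pools, at 3.62, 3.62 and 3.95 in XO pools and at 21.4, 16.0 and 31.1 in XY pools. The lowest XY pool was 4.04 times the highest of the others, the widest gap among the genes examined, and the log2 fold changes of Evi2b were 2.96 and 2.60. Evi2a was rare, with 1, 2 and 0 UMIs in XX pools, 1, 3 and 4 in XO pools and 8, 18 and 13 in XY pools. It did not pass the filter on low counts, so no fold change was fitted, and XY pools again lay above all others. Of the UMIs on the 3 Evi2 genes, Evi2b had 32.6% in XY pools, 24.8% in XX pools and 23.1% in XO pools, with the uncertainty of the split given above. Leukocyte markers, given here because Evi2b is known from leukocytes, summed to between 5.11 and 14.2 normalized CPM in XY pools, 8.05 and 16.1 in XX pools and 2.07 and 26.0 in XO pools, with 10 of the 14 genes of the list present and none of these at 0 in all pools. The ranges overlapped among the genotypes, and the part of such cells in the levels of the Evi2 genes was not tested.

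Of the genes outside a host, Ttc39a, which encodes a protein with tetratricopeptide repeats, stood at 12.1, 9.10 and 11.0 normalized CPM in XX pools, at 8.28, 8.79 and 16.9 in XO pools and at 40.4, 30.9 and 49.5 in XY pools. Its lowest XY pool was 1.83 times the highest of the others, and its log2 fold changes were 1.90 over XX and 1.83 over XO oocytes. Dnajc5g, which encodes a J-domain protein of the cysteine string protein family, stood at 19.6, 21.0 and 16.8 normalized CPM in XX pools, at 32.6, 22.7 and 28.2 in XO pools and at 57.6, 60.9 and 48.9 in XY pools. On this scale every XO pool also lay above every XX pool, and the share of all genes with this order was not counted. By UMIs these pools overlapped, at 55, 60 and 55 in XX pools and 63, 44 and 50 in XO pools. The log2 fold change of Dnajc5g was larger over XX (1.54) than over XO oocytes (1.00), where the medians of all genes were 0.19 and -0.30. Abhd12b, which encodes a protein of the alpha/beta hydrolase fold, had only 4, 5 and 7 UMIs in XX pools, 9, 4 and 6 in XO pools and 18, 22 and 26 in XY pools. It passed the filter on low counts through its XY pools alone, and its log2 fold changes were 2.10 and 1.19. The mean of Abhd12b was 7.79 ± 0.604 normalized CPM (SD, n = 3) in XY, 1.77 ± 0.354 in XX and 3.37 ± 1.30 in XO oocytes.

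**Figure D2:**
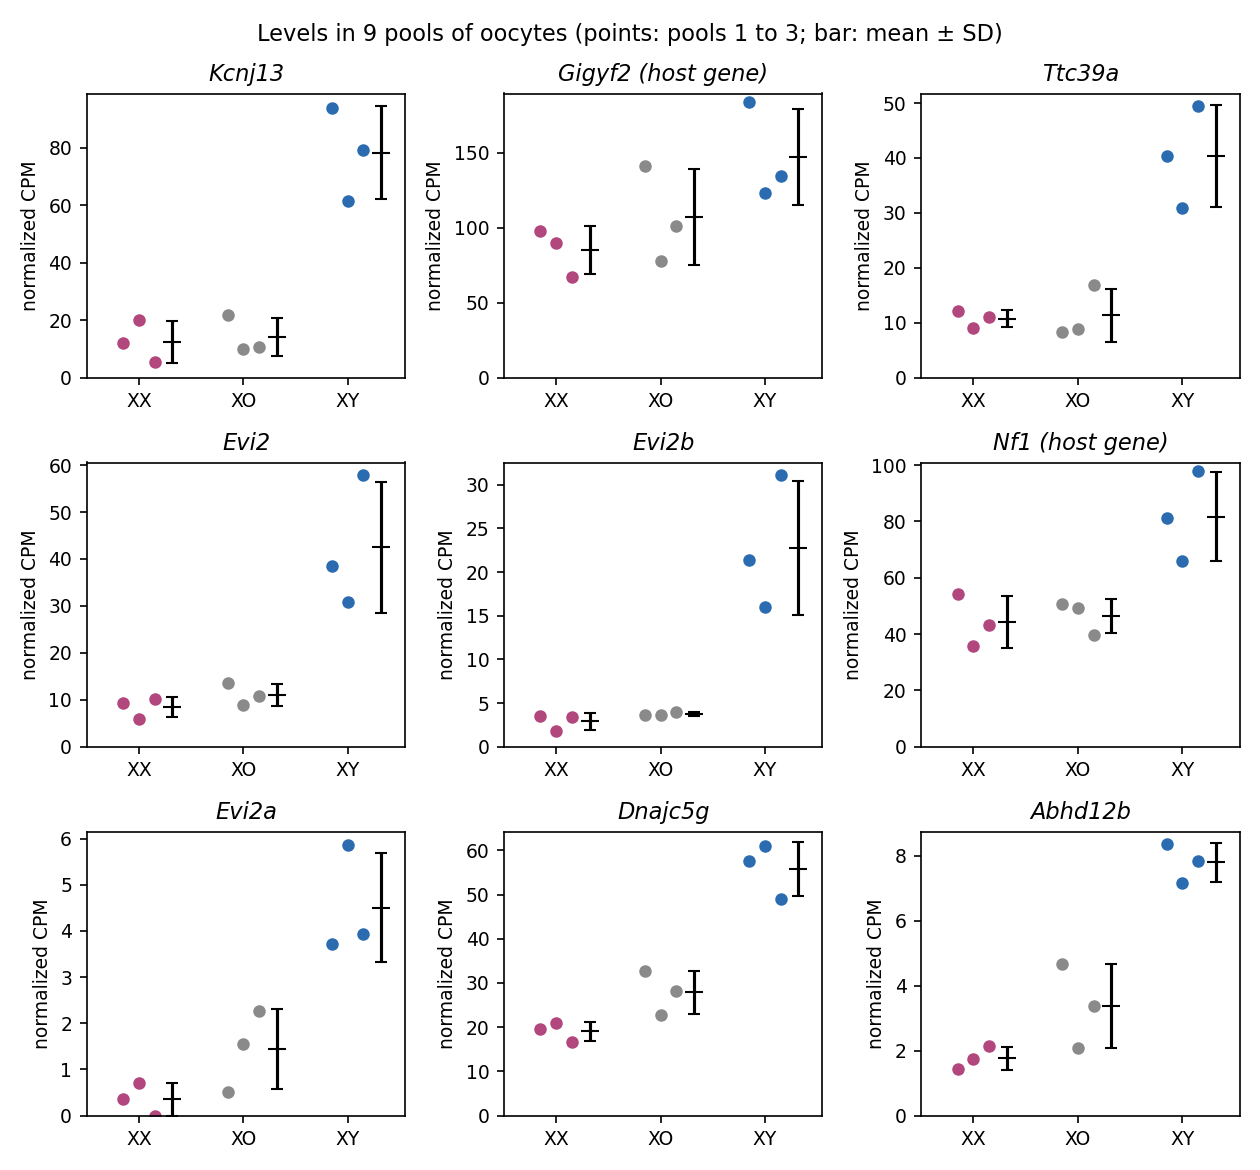
Normalized CPM of the 9 analysed genes in each pool, by genotype. Points are pools 1 to 3 from left to right, and bars are the mean ± SD of each genotype. XY pools lie above all others for each gene except the host Gigyf2, in which XO1 at 141 lies among the XY pools.

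To ask whether the host genes changed too, both were compared between XY oocytes and the others. Nf1 was at 54.1, 35.7 and 43.3 normalized CPM in XX pools, at 50.7, 49.1 and 39.5 in XO pools and at 81.3, 66.1 and 97.8 in XY pools. All XY pools lay above all others, the lowest by 1.22 times, an order that 1.96% of all genes tested had. Gigyf2 was at 98.0, 89.6 and 67.3 normalized CPM in XX pools, at 141, 78.1 and 101 in XO pools and at 184, 123 and 135 in XY pools. All XY pools lay above the XX pools but overlapped with XO pools, since XO1 was higher than XY2 and XY3. The share of all genes with XY pools above all XX pools was not counted, so nothing is read from this order.

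In the quasi-likelihood test of edgeR, Nf1 was called higher in XY than in XX oocytes, by 0.88 on the log2 scale (SE 0.28), in a comparison in which 4.39% of all genes tested were called higher in XY and 1.41% lower at an unadjusted p below 0.05. Over XO oocytes, Nf1 was called higher by 0.81 (SE 0.28), where 1.69% of all genes were called higher in XY and 8.24% lower. Gigyf2 was called higher in XY than in XX oocytes by 0.79 (SE 0.32), and over XO oocytes its difference of 0.46 (SE 0.32) did not pass the test, with a 95% interval of -0.26 to 1.18. After Benjamini-Hochberg adjustment of the edgeR values over all genes tested, neither host gene passed, with adjusted p of 0.587 and 0.485 for Nf1 and of 0.783 and 0.607 for Gigyf2 over XX and XO oocytes. With surrogate variables as covariates in edgeR, the adjusted p over XX oocytes was 0.0031 for Gigyf2 and 0.0039 for Nf1. Over XO oocytes it was 0.0093 for Nf1 and 0.136 for Gigyf2 in this fit. Such variables are estimated from the same pools and then taken as known, so these p-values may be too small. The fit also called 9 of 57 genes tested within 500 kb of the set over XX oocytes, where the main fit called 2. In limma on the batch-regressed values, the adjusted p was 0.0067 and 0.0015 for Gigyf2 and 0.030 and 0.00073 for Nf1, over XX and XO oocytes. The limma fit did not account for the batch effects removed beforehand, so its p-values may be too small as well. The share of all genes that passed in these fits is not given here. Over all 17 alternative fits the highest adjusted p was 1.00 for each host and comparison. In the fit with spike-in factors, only 9 genes passed after adjustment between XY and XX oocytes and 4 between XY and XO oocytes. The XY pools against the 6 other pools gave a difference of 0.83 in mean log2(normalized CPM + 1) for Nf1. This was at the smallest p that the exact permutation test of 84 splits can give (p = 0.0119, two-sided). For Gigyf2 the difference was 0.63 (p = 0.0595 in the same exact test). If strand was not used in counting, UMIs of Gigyf2 may include some of Kcnj13, which was chosen for its level. The tests of Gigyf2 would then not be independent of that choice. The order behind the result for Nf1 depended on the scale, since with a plain ERCC total its XY pools did not all lie above the others.

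Single pools decided some of these calls. The call of Nf1 over XX oocytes was lost without XX2, where the log2 fold change was 0.75, or without XY3 (0.72), and that over XO oocytes without XO3 (0.71). The call of Gigyf2 over XX oocytes was lost without XX2 (0.83), XX3 (0.65) or XY1 (0.60), whereas without XO1 its difference from XO oocytes passed the test (0.78). The direction stayed upward in all 17 alternative fits for each host and comparison. The median log2 fold change of all genes tested was 0.19 between XY and XX oocytes and -0.30 between XY and XO oocytes with the spike-in factors. Relative to it, Nf1 was higher by 0.69 and 1.11 and Gigyf2 by 0.60 and 0.76, over XX and XO oocytes in this order, while Kcnj13 was higher by 2.45 and 2.76 and Evi2 by 2.14 and 2.25.

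**Figure D3:**
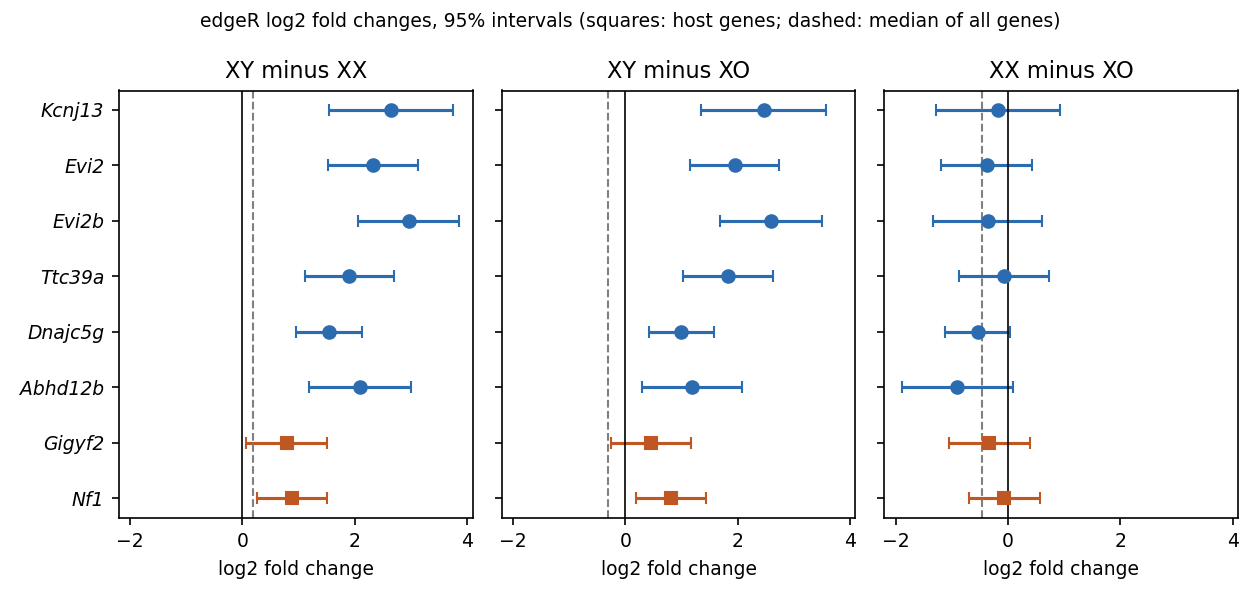
Log2 fold changes of the 8 genes that passed the filter, between XY and XX, XY and XO, and XX and XO oocytes. Points and squares are edgeR estimates with 95% intervals, squares are the host genes, and the dashed line is the median of all genes tested. The host genes lie at 0.46 to 0.88 in the comparisons with XY, to the left of the other genes, whose values there were the base of their choice.

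Nested and host gene were then set against each other by the share of UMIs of the pair that fell on the nested gene, which does not depend on the scaling of the pool. The share is compared between pools and says nothing about which gene of a pair is transcribed more. Kcnj13 had 11.0%, 18.2% and 7.53% of the UMIs of the pair in XX pools, 13.3%, 11.2% and 9.60% in XO pools and 33.8%, 33.3% and 37.0% in XY pools. The XY pools were close together, and their lowest bound of the 95% Wilson interval was 29.6%, above the highest bound in the other pools, 22.9%. On average, the share was 34.7 ± 1.99% (SD, n = 3) in XY, 12.2 ± 5.45% in XX and 11.4 ± 1.88% in XO oocytes. Evi2 had 14.6%, 14.3% and 18.9% of the UMIs of Evi2 and Nf1 in XX pools, 21.0%, 15.2% and 21.3% in XO pools and 32.2%, 31.9% and 37.2% in XY pools. The groups did not overlap, but some Wilson intervals did, with bounds down to 26.8% in XY pools and up to 31.0% in XO3. With the UMIs of all 3 Evi2 genes summed, which may count some UMIs more than once, the share of the cluster was 45.7 ± 2.66% in XY, 20.8 ± 2.52% in XX and 26.0 ± 3.94% in XO oocytes. The intervals cover counting error only, and no test was made, since the nested genes were chosen by their levels.

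**Figure D4:**
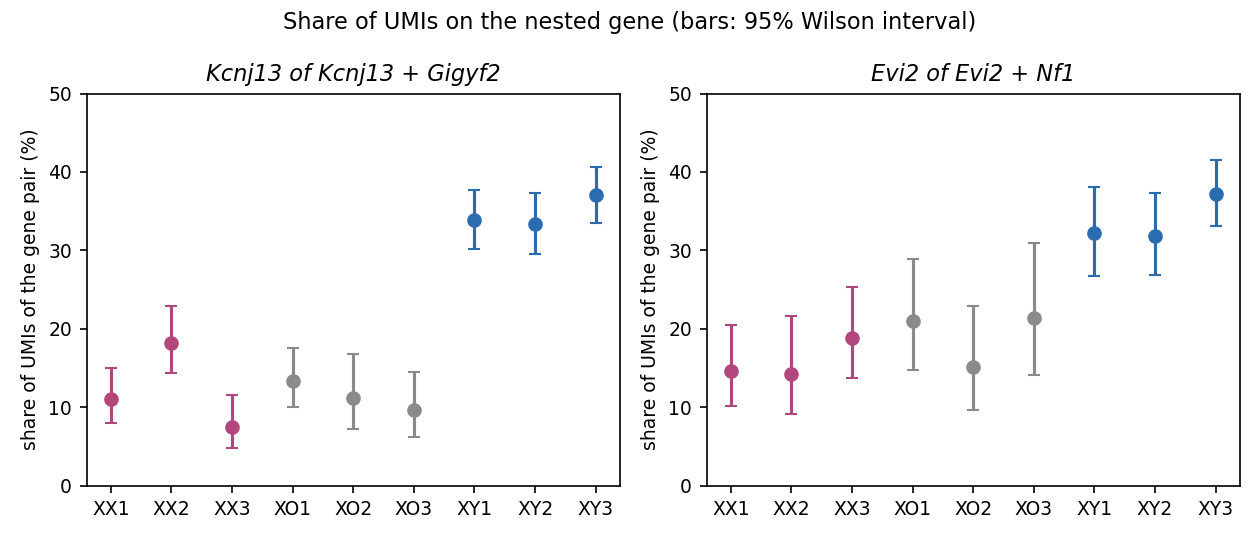
Share of UMIs on the nested gene, in percent of the UMIs of the nested gene and its host, for Kcnj13 with Gigyf2 (left) and Evi2 with Nf1 (right) in each of the 9 pools. Bars are 95% Wilson intervals. The XY pools reach 33.3 to 37.0% for Kcnj13 and 31.9 to 37.2% for Evi2, above all other pools.

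XX and XO oocytes were tested against each other for the 8 genes that passed the filter. The choice of genes did not compare XX with XO oocytes, but it used the levels of both. For the chosen genes this comparison is thus not independent of the choice. Abhd12b, with 4 to 9 UMIs in these pools, had passed the filter through its XY pools alone and is given apart from the other 7. Evi2b, with 5 to 11 UMIs in these pools, reached the limit of the filter in 5 pools, 3 of them XY. It too would not have been tested without its XY pools, so its values here are a description. None of the 8 was called by edgeR at an unadjusted p below 0.05, with adjusted p of 0.295 to 0.920, where 18.1% of all genes tested were called in either direction. DESeq2 called none either. A fit with a surrogate variable, a hidden factor estimated from the data, called Gigyf2 and Dnajc5g lower in XX, limma on the batch-regressed values called Nf1 and Ttc39a higher in XX, and without XO2 Dnajc5g and Abhd12b were called lower in XX. Log2 fold changes of XX over XO oocytes ranged from -0.54 in Dnajc5g to -0.07 in Nf1 among the 7 genes and stood at -0.90 in Abhd12b, beside a median of -0.46 over all genes tested. For Kcnj13 the difference was -0.18 with a 95% interval of -1.27 to 0.92, which covers differences in either direction. By their mean normalized CPM, all 9 genes took the order XY, XO, XX, but the step from XO to XX did not pass the test for the 8 genes tested. The share of all genes with this order was not counted. The step depended on the scale, since normalized CPM over all genes summed to 1181293 to 1422594 in XO and 802037 to 888533 in XX pools. By UMIs summed over a genotype, XX lay above XO oocytes for all of these genes except Evi2a and Abhd12b. Relative to the median of all genes, 6 of the 7 apart from Abhd12b were higher in XX, Evi2b with the limit given above among them. The choice kept genes lower in XO than in XY oocytes. Nothing is therefore read about the chosen genes from this count or from the absence of calls.

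Genes around the set were examined to see how far the differences reached. Within 500 kb of a member, 118 other genes were listed and 57 tested. Between XY and XX oocytes, 2 of the 57 were called higher in XY and 0 lower, with a median log2 fold change of 0.12. Over all genes tested, 4.39% were called higher and 1.41% lower, with a median of 0.19. Cdkn2c, the gene of a cell cycle inhibitor 216 kb from Ttc39a, was called higher over XX oocytes (2.45), but its XY pools spread from 0.93 in XY1 to 11.8 in XY3 and overlapped with both other genotypes. Between XY and XO oocytes, 1 of the 57 was called higher and 5 lower, with a median of -0.37. The shares over all genes tested were 1.69% and 8.24%, with a median of -0.30, so nothing is read from these counts about the neighbours. Those called lower were Rab3b by 1.73, Suz12 by 0.86, Atg16l1 by 1.01, Dpysl5 by 1.23 and Zfp512 by 1.59 on the log2 scale. Suz12, a Polycomb subunit 411 kb from Nf1, was at 51.0 ± 8.22 normalized CPM in XY, 92.5 ± 9.35 in XO and 56.6 ± 12.3 in XX oocytes.

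None of these passed after adjustment. Of the 13 genes tested within 100 kb of a member, none was called in either comparison by edgeR at an unadjusted p below 0.05. At the shares called over all genes, few or no calls would be found among any 13 genes, so this does not show how far the differences reach. The direction of the calls between XY and XO oocytes depended on the scale, with 2 higher and 2 lower by library size alone and 28 higher and 5 lower in the batch-regressed values. The number also depended on single pools, with 20 calls without XO1 and 2 without XY2 or XY3, and it rose to 10 with the replicate number as a block in the fit. Between XY and XX oocytes, 1 gene was called without XX1, XX2 or XY3.

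**Figure D5:**
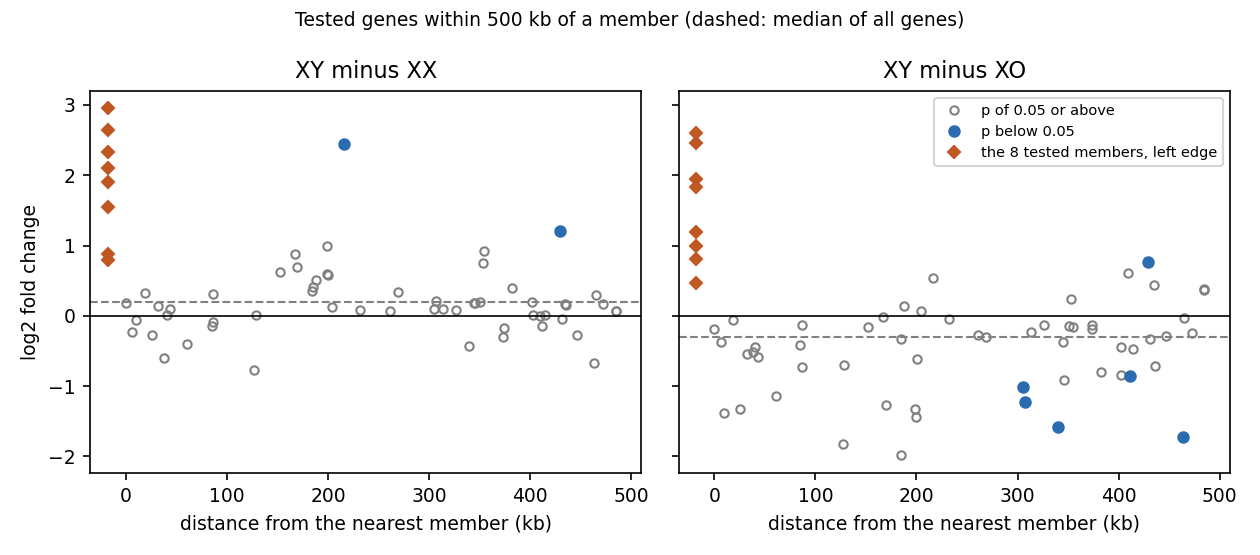
Log2 fold changes of the 57 tested genes within 500 kb of a member against their distance from the nearest one in kb, between XY and XX oocytes (left) and XY and XO oocytes (right). Filled circles were called at an unadjusted p below 0.05, diamonds at the left edge are the 8 tested members, and the dashed line is the median of all genes tested. None of the 13 genes tested within 100 kb was called, too few genes to show how far the differences reach.

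Genes that act with the proteins of the set were taken from lists. Of the 29 Ras proteins and regulators around neurofibromin, 19 were tested and 0 were called between XY and XX oocytes, with a median of 0.17 on the log2 scale. Between XY and XO oocytes 0 were called higher and 3 lower, with a median of -0.24. Over all genes tested, 4.39% were called higher and 1.41% lower over XX oocytes, and 1.69% and 8.24% over XO oocytes. Map2k1 and Mapk3, which encode kinases downstream of Ras, were among the 3 called lower. Map2k1 was at 39.0 normalized CPM in XY, 147 in XO and 26.8 in XX oocytes, on average. Mapk3 was at 12.1 in XY, 116 in XO and 11.4 in XX oocytes. XO2 and XO3 carried these XO means, since Map2k1 was at 21.2, 180 and 239 and Mapk3 at 1.55, 74.4 and 272 in XO pools, XO1 first. Their log2 fold changes over XX oocytes were 0.54 and 0.10. The Ras gene Nras had log2 fold changes of 0.04 over XX and -0.01 over XO oocytes, neither past the test.

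Of the 13 genes of translational repression by 4EHP and GIGYF proteins, 9 were tested and 0 were called in either comparison, with medians of 0.04 over XX and -0.29 over XO oocytes. Eif4e2, which encodes 4EHP, was at 37.9 normalized CPM in XY, 40.3 in XX and 63.1 in XO oocytes. Of the 14 other inward rectifier genes, 11 were present and 0 passed the filter, so none could be tested. Their sum was between 2.11 and 2.93 normalized CPM in XY pools, 2.80 and 3.56 in XX pools and 1.03 and 2.82 in XO pools. Among 7 tested paralogs of Ttc39a, Dnajc5g and Abhd12b, Ttc39b was called higher in XY than in XX oocytes (log2 fold change 0.65, 23.1 against 14.7 normalized CPM). The other 6 were not, in a comparison in which 4.39% of all genes tested were called higher, and 0 were called between XY and XO oocytes. Dnajc5, the closest relative of Dnajc5g that is widely expressed, had -0.13 over XX and -0.14 over XO oocytes, neither past the test. Of the partners of the Omg protein, Rtn4 alone was tested and was not called, with 0.44 and -0.11. None of the listed genes passed after adjustment. The 3 calls over XO oocytes became 3 in the other direction by library size alone and 13 higher in the batch-regressed values, and they numbered 8 without XO1 and 0 without XO3, XY1 or XY2. With the replicate number as a block they numbered 5, and those over XX oocytes 3.

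Markers of oocytes and of other ovarian cells were set beside these results. Of 12 oocyte markers tested, 0 were called between XY and XX oocytes and 5 were called lower in XY than in XO oocytes, with a median of -1.26. Over all genes tested, 8.24% were called lower in XY than in XO oocytes, with a median of -0.30. The 5 markers included Gdf9, which encodes a growth factor of the oocyte and was at 283 normalized CPM in XY, 281 in XX and 1213 in XO oocytes. Zp1, which encodes a zona pellucida protein, was at 75.1 in XY, 69.8 in XX and 980 in XO oocytes. Ooep, which encodes a subunit of the subcortical maternal complex, was at 757 in XY, 633 in XX and 2918 in XO oocytes. The XO means of all 3 rest on XO2 and XO3. XO1 was at 339 for Gdf9, 14.0 for Zp1 and 566 for Ooep, beside 234 to 350, 26.0 to 129 and 467 to 1197 in XY pools. Granulosa markers summed to between 68.4 and 121 normalized CPM in XY pools, 59.2 and 84.4 in XX pools and 73.5 and 130 in XO pools, with 10 of 13 present. Endothelial markers summed to between 37.6 and 69.4 in XY, 26.6 and 58.5 in XX and 20.7 and 146 in XO pools, with 4 of 7 present. Stroma and theca markers summed to at most 8.55 and erythroid markers to at most 3.72 in any pool, with 6 of 10 and 2 of 6 present. Every marker present had a UMI in some pool. The ranges overlapped among the genotypes for each of these cell types, and their part in the levels of the set was not tested.

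The genes whose levels over the 9 pools were most like those of each chosen gene were sought by the mean absolute difference of centred log2(normalized CPM + 1) values. This measure follows the pattern over pools of 3 genotypes, which was the base of the choice, and is given as a description. Nearest to Ttc39a was Kdm5b, which encodes a histone H3K4 demethylase, at a mean difference of 0.251 on the log2 scale. Kdm5b was at 27.8, 22.4 and 17.7 normalized CPM in XX pools, at 13.5, 18.1 and 35.0 in XO pools and at 49.3, 67.4 and 83.3 in XY pools, and thus, like Ttc39a, was highest in XO3 among the XO pools and in XY3 among the XY pools. Ttc41 and Gm44901 followed, at 0.316 and 0.332. Nearest to Abhd12b was Ago4, which encodes an Argonaute protein, at 0.177, before Phf11d and 5730419F03Rik at 0.218 and 0.234. Ago4 was at 7.99 ± 1.58 normalized CPM (SD, n = 3) in XY, 2.70 ± 0.440 in XX oocytes and at 5.18, 2.58 and 3.95 in XO pools. It was also among those nearest to Dnajc5g, at 0.205, with Gm21762 at 0.203 and Zrsr1 at 0.214.

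Nearest to Kcnj13 were the Y-linked Gm20871 at 0.382, Gm44901 at 0.423 and the X-linked Gm15726 at 0.456. Gm20871 was also nearest to Evi2b, at 0.265, followed by Gm44901 at 0.389 and 1700019C18Rik at 0.391. It had 0 UMIs in XX and XO pools, in which the floor of 3 UMIs over a genotype allows 0.337 and 0.533 normalized CPM, and was at 6.51, 3.91 and 7.85 in XY pools. Nearest to Evi2 were 1700019C18Rik at 0.343, 5730419F03Rik at 0.363 and Gm44901 at 0.383. Gm44901 recurred for 4 of the 6 genes and was at 15.3 ± 2.58 normalized CPM in XY, 3.65 ± 1.32 in XX and 2.68 ± 0.989 in XO oocytes.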

How the data were processed

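RNA of 30 pooled oocytes per sample was measured in 9 samples, grouped by the genotype in the sample labels, and no sample was left out. According to their methods, the authors aligned stranded, paired-end reads to GRCm38 and the Gencode transcriptome with Hisat2, kept reads of 5′ exons and counted UMIs. The versions of these tools are not given in the sources used here. The deposited counts are the UMIs per gene. The deposited signal, called normalized CPM, is the counts divided by 1 factor per sample that the authors derived from the ERCC spike-ins, of which 74 were detected. In the deposited log2 values, called batch-regressed values, the authors had removed batch effects by regression. Spike-ins were 0.204 to 0.862% of UMIs. The stranded mode is stated for the alignment. Whether strand was used when UMIs were assigned to genes is not given in the sources used here, so where exons of Gigyf2 and Kcnj13 overlap, UMIs of the pair may not be told apart.

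Counts were tested by the quasi-likelihood F test of edgeR 4.0.16, with spike-in factors, the filter of filterByExpr at a minimum count of 10, and 1 fit of all samples by genotype, and called at an unadjusted p below 0.05, the threshold of the study, with Benjamini-Hochberg adjusted values beside it. Host levels were also compared by an exact permutation test with a pseudocount of 1 (scipy 1.17.1). Alternatives used limma 3.58.1, DESeq2 1.42.0 and sva 3.50.0. In simulated data for the comparison of XY with XX, 91.8% of 195 genes changed by 2 on the log2 scale and 4.11% of unchanged genes were called, of 10679 genes. The simulated pools were independent of each other. These shares therefore do not give the error rate in the real pools, which may depend on each other as described below. Positions came from Gencode vM21, equal to the deposited ones for the 9 genes, and promoters from RefSeq. The members and the lists were chosen with earlier results of these data known. Besides the members, the text names neighbours within 500 kb that were called, the 3 called genes of smallest p in each list, and the 3 genes nearest in pattern to each chosen gene. Other listed genes, the Y-linked genes and Slc5a4b were named after their values were seen. A few genes that this rule names are not reported here.

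Neither the labels nor the methods say what a replicate number marks. Deviations from the genotype means, across genes, correlated between XO and XY samples of the same number at 0.830, 0.278 and 0.773. These may be paired, judged from these values alone. The main fit and the exact test did not use a pairing, so such a dependence is not in their p-values. The replicate block was fitted as an alternative, with the pool number for all genotypes. For XX samples such values ran from -0.447 to 0.679 with XO and from -0.0595 to 0.726 with XY samples, so a pairing of XX samples is not clear. The pools are called biological triplicates, but the animals behind each are not given.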

Additional observations from a re-analysis of the deposited data

How the results depend on the processing

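The 17 other fits kept the direction of both host genes. Gigyf2 over XX lost its call with TMM on genes (0.64), library size alone (0.65), the ERCC total (0.11), no filter on low counts (0.79) and DESeq2 (0.63). Gigyf2 over XO gained one with library size alone (0.88), surrogate variables (0.38) and limma on batch-regressed values (0.67). Nf1 lost its calls with the ERCC total (0.23 over XX and 1.06 over XO) and, over XO, with no filter (0.81). In the exact test over samples, the difference of Gigyf2 passed with TMM on genes (0.70, p = 0.0357) and library size alone (0.77, p = 0.0238). With the ERCC total, the XY pools no longer all lay above the others for Nf1. Leaving out 1 sample gave 0.60 to 0.90 for Gigyf2 over XX, 0.27 to 0.78 over XO, 0.72 to 1.03 for Nf1 over XX and 0.71 to 1.05 over XO.

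The replicate block, a term for each pool number, gave 0.89 over XX and 0.80 over XO for Nf1, and 0.47 over XO for Gigyf2, and changed no call of a host. It raised the calls among listed genes to 3 over XX and 5 over XO, and those of neighbours over XO to 10.

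Neighbours called over XX numbered 0 with the ERCC total, an adjusted p below 0.05 or a window of 100 kb, 9 with surrogate variables, 10 in batch-regressed values and 4 within 1000 kb. Over XO they numbered 0, 0 and 0, then 13, 33 and 12, and 17 with no filter. Listed genes called over XX numbered 0 with TMM on genes, library size alone, the ERCC total, DESeq2 or an adjusted p, 5 with surrogate variables and 4 in batch-regressed values. Over XO they numbered 0 with the ERCC total or an adjusted p, 6 with no filter, 9 with surrogate variables and 13 in batch-regressed values. Without 1 sample, these counts ranged from 1 to 3 and 2 to 20 for neighbours and from 0 to 3 and 0 to 8 for listed genes, over XX and XO. Members called between XX and XO numbered 2 with surrogate variables and in batch-regressed values, and 0 to 2 without 1 sample. Members above all other pools numbered 3 with the ERCC total. The cause of these changes was not tested. For the 6 chosen genes tested, log2 fold changes kept their direction in all 204 values, from 0.84 to 3.18. The median of all genes moved from 0.19 to -0.49 over XX with the ERCC total, and from -0.30 to 0.13 over XO with library size alone. The smallest counts, those of Evi2a, set the limit of what this depth shows.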
